A study of Mus musculus with 12 samples.

Results

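Livers of mice injected with drug-loaded liposomes were compared with livers of mice for which no injection is described, and genes were sought whose 6 injected libraries all lay on the same side of the 6 others. The injected libraries are the 3 titled HFHS_Curcumin and the 3 titled HFHS_Calcitriol, and the others, called uninjected here, are the 3 titled HFHS and the 3 titled CNT, which together make up the 12 libraries of the series. Of 12637 genes tested, 229 met this rule of separation: 110 with the injected libraries above and 119 with them below. All libraries come from whole, flash-frozen liver of female C57BL/6 mice, an inbred strain. HFHS stands for a diet high in fat and sugar that all groups are labelled as eating for 14 weeks, used as a model of fatty liver disease. The injected mice received the same diet and, into a vein at weeks 12 and 13, liposomes loaded with curcumin, a polyphenol of turmeric, or with calcitriol, the active hormone form of vitamin D. Their livers were taken 2 weeks after the initial injection. The labels give the CNT mice the same diet text as all others, and give no difference from HFHS, and neither group is described as left uninjected. Mice given empty liposomes were not analysed here, so drug, liposome and injection cannot be told apart. Whether replicates of a group come from different animals is not given. The p-values therefore reflect the spread among these libraries alone, taken within each titled group. Differences between HFHS and CNT, or between curcumin and calcitriol, do not enter that spread.

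Liposomes are lipid vesicles, and those injected into the blood are taken up to a large extent by the resident macrophages of the liver, the Kupffer cells. The liver is a main site of cholesterol synthesis and, when sugar is fed, of fatty acid synthesis. The genes for both pathways are switched on by the sterol regulatory element-binding proteins, which are held back in the endoplasmic reticulum by the INSIG proteins when sterols are plentiful. Metallothioneins bind zinc and copper and are induced by metals, glucocorticoids and cytokines. Metals act through short metal response elements in the promoters of these genes.

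The deposited values are expression levels on a log2 scale without counts, and sequencing depth is unknown. Differences below are on that scale, injected minus uninjected, with the standard error (SE) of the fitted model. A gene is said to have risen or fallen when limma's adjusted p was under 0.05. On the first principal component (37.5% of the variance) HFHS replicates 1 and 3 lay apart, at -32.8 and -28.4, while the other 10 libraries lay between 0.4 and 14.4. On the second (17.5%) every injected library was positive, from 1.6 to 18.8, and every uninjected one negative, from -15.3 to -2.1. HFHS replicate 2, at -2.1, and curcumin replicate 2, at 1.6, were the nearest across the divide. Hepatocyte markers were present throughout: all 16 were tested, none rose or fell, and their summed level spanned 20.26 to 21.15 (log2) in injected and 20.62 to 21.10 in uninjected libraries.

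**Figure D1:**
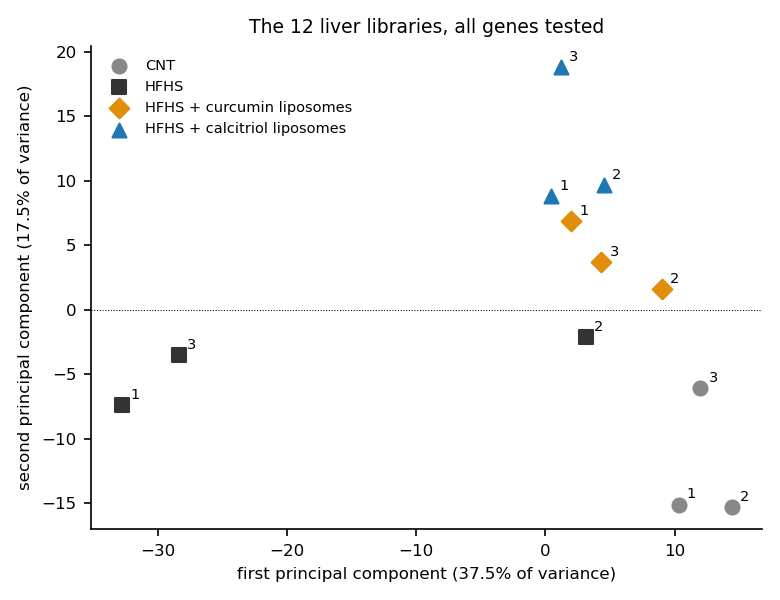
First against second principal component of the 12637 genes tested, with a point for each library and its replicate number. All 6 injected libraries lie above 0 on the second component, and HFHS replicates 1 and 3 lie at the left of the first.

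In the comparison over all genes, 227 genes (1.8% of those tested) were called higher and 225 (1.78%) lower in the injected livers. A difference of at least 1, a doubling or more, was reached by 8 of the former and 7 of the latter. Of all genes tested, called or not, 5927 had a difference above 0 and 6665 below 0. These shares over all genes are the background for the list counts below. The separated genes make up 0.87% (higher) and 0.942% (lower) of the genes tested. They were chosen by the contrast that the test uses, so their differences and adjusted p describe them and support nothing further. Of the 110 separated higher genes 76 were also called, and of the 119 separated lower ones 88. Their median difference was 0.32 and -0.33, against -0.01 over all genes tested, and the smallest were 0.11 and -0.04, so that separation often means a small, even shift. The smallest belonged to Rhoa, a small GTPase, where the injected libraries ran from 10.02 to 10.11 and the uninjected ones from 10.11 to 10.16. Of the 229, 96.5% are protein-coding (95.6% of all tested), and the median GC content of their exons is 51.8% in the higher and 48.2% in the lower ones (49.5% in all tested).

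**Figure D2:**
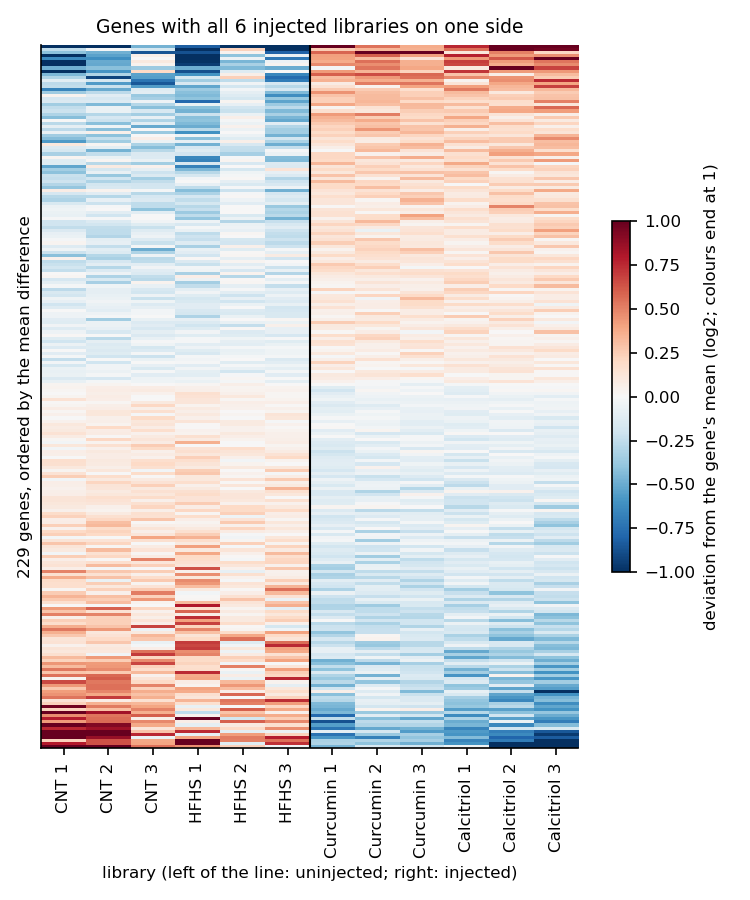
Deviation of each of the 229 separated genes from its mean (log2, colours end at 1), with libraries in columns and genes in rows ordered by the mean difference. The 6 columns left of the line are uninjected and the 6 at its right injected, and strong colours are limited to the genes at the top and bottom.

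The rule has a sharp edge. Just inside it were Fam234b, Lrp3 and Gsta2, whose nearest injected and uninjected libraries were 0.0001 or less apart. Just outside were Adgrf1, Senp6 and Cnot10, with overlaps of 0.00034 to 0.00145. Adgrf1, an adhesion-type G protein-coupled receptor, missed the rule but differed by -1.04 (SE 0.17, adjusted p = 0.00924), whereas Lrp3 met it with 0.24 (SE 0.07, adjusted p = 0.101). In Adgrf1 HFHS was itself below CNT (-1.23, adjusted p = 0.0161), and against HFHS alone the difference was -0.43 (adjusted p = 0.226).

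The largest rise was in Mt2, a metallothionein gene (ENSMUSG00000031762, GRCm38 chromosome 8, 94172664 to 94173568, plus strand, GENCODE M21). Its level was 9.82, 9.85 and 10.53 in CNT, 10.17, 9.57 and 9.64 in HFHS, 12.14, 11.54 and 11.37 with curcumin and 11.75, 12.27 and 13.31 with calcitriol liposomes. Every injected library was above every uninjected one, with a gap of 0.84, and calcitriol replicate 3 was the highest. The difference was 2.13 (SE 0.26, adjusted p = 0.00342). Taken singly it was 1.89 for curcumin against HFHS, 2.65 for calcitriol against HFHS, and 1.62 and 2.38 against CNT. The promoter is shown because metal response elements are the known entry point for metals at this gene. In the 250 bases before the RefSeq start (GRCm38.p6, chr8:94172368-94172617, plus strand), the element's core, TGCACNC or TGCGCNC on either strand, was found 3 times, at 223, 128 and 50 bases before the start, and is in capitals.
Mt2: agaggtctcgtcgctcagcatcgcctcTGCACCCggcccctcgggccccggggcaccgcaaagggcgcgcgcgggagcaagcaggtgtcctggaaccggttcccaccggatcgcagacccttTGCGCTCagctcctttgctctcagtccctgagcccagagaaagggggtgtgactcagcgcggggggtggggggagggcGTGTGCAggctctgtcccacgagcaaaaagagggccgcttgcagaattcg
At least 1 such core is in the same window of 33.7% of the tested genes that have a promoter in the table and of 23.8% of all promoters there. It describes the sequence and shows no binding.

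Mt1, the neighbouring metallothionein gene, also rose, by 1.38 (SE 0.25, adjusted p = 0.0163), but its groups overlapped. It ran from 10.65 to 12.33 with a median of 11.06 in uninjected libraries and from 12.01 to 13.53 with a median of 12.46 in injected ones. The overlap came from CNT replicate 3, at 12.33, and against CNT alone the difference was 0.95 with the call lost (adjusted p = 0.0972). Of 20 tested genes of metallothioneins and zinc transport, 4 rose, 1 fell and the median difference was 0.02. The zinc exporter gene Slc30a1 rose by 0.22 (SE 0.04, adjusted p = 0.023) and Slc39a5, a zinc importer gene, by 0.44 (SE 0.09, adjusted p = 0.0259). Against HFHS alone Slc39a5 differed by 0.28 with curcumin and -0.11 with calcitriol, and it was 0.72 higher in HFHS than in CNT. Slc30a1 behaved the other way: HFHS lay 0.37 below CNT (-0.37, adjusted p = 0.0109), and the injected groups differed from CNT by -0.06 and 0.12. Neither zinc transporter stayed past the threshold without HFHS replicate 1, and Slc30a1 and Slc39a5 also lost it without several other single libraries (adjusted p up to 0.0662 and 0.0698). With HFHS replicates 1 and 3 both left out, Mt2 was the 1 list member to pass, with 0 lower.

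**Figure D3:**
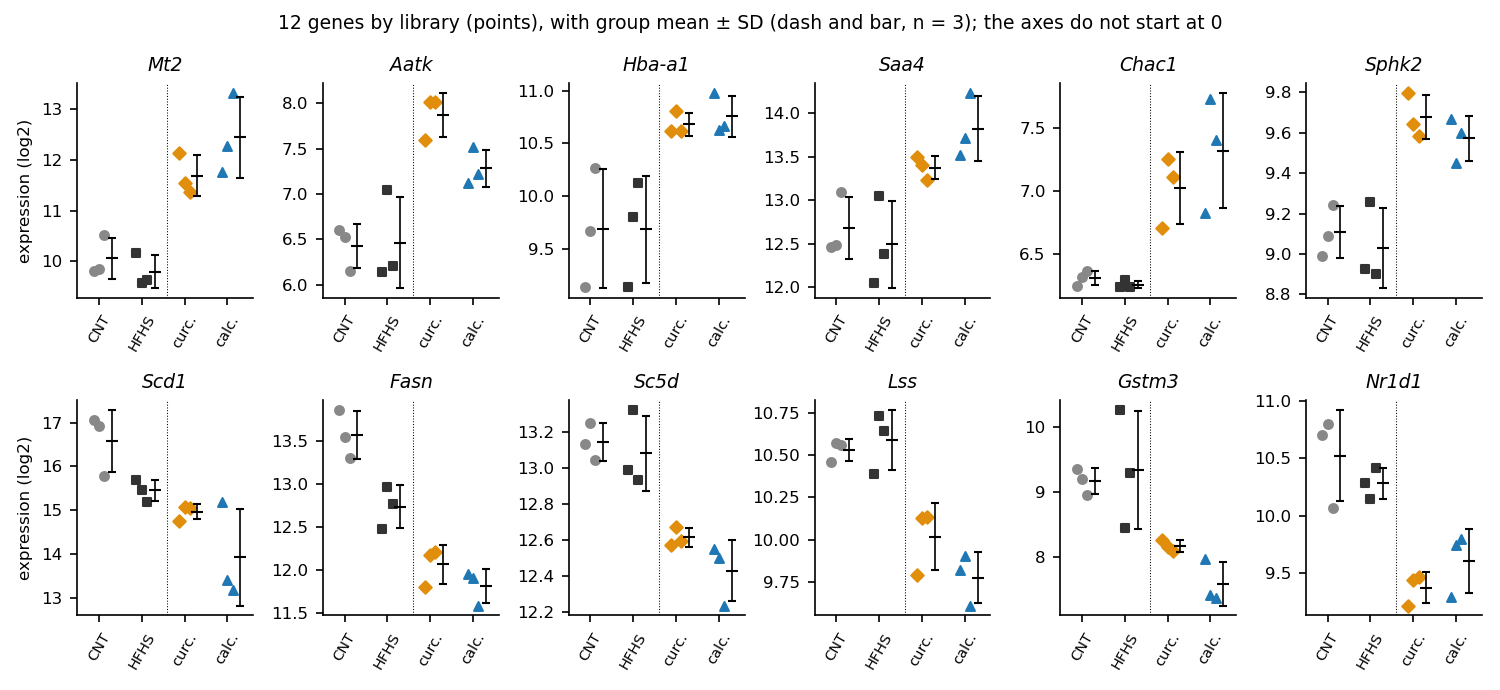
Level (log2) of 12 genes in each library (points, by group), with the group mean and SD (n = 3) beside them, and the dotted line between uninjected and injected groups. The panels of Mt2 and Lss show all 6 injected points on one side of the 6 uninjected ones.

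Genes of cholesterol synthesis were lower in the injected livers. Of the 26 listed genes for cholesterol synthesis and uptake, all tested, 17 fell and 0 rose, 25 had a difference below 0, and the median difference was -0.49. Enzymes early and late in the pathway took part. Fdps, which makes farnesyl pyrophosphate, fell by 0.70 (SE 0.11, adjusted p = 0.00678), from 8.01 to 8.50 (median 8.24) to between 7.30 and 7.96 (median 7.37). Lss, which closes the sterol ring, fell by 0.66 (SE 0.08, adjusted p = 0.00273), from 10.39 to 10.73 (median 10.57) to between 9.61 and 10.13 (median 9.86). Sc5d, a late desaturase, fell by 0.59 (SE 0.09, adjusted p = 0.00485), with 12.94 to 13.32 (median 13.09) against 12.23 to 12.67 (median 12.56). In each of these 3 genes the lowest uninjected library was above the highest injected one. Mvd, Sqle and Hmgcs1, named after their values were seen, fell by 0.84, 0.73 and 0.70 with overlapping libraries, and Dhcr7, named likewise, fell by 0.49 without overlap. The regulator gene Srebf2 differed by 0.02 and did not pass.

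The fall in these genes was present against each uninjected group. Against HFHS alone 13 of the 26 fell, against CNT alone 17, and without HFHS replicates 1 and 3 together 16, with no rise in any of them. Leaving out each library in turn gave 11 to 19 genes lower, with 11 reached without calcitriol replicate 3 and without CNT replicate 2. Lss differed from HFHS by -0.57 with curcumin and by -0.81 with calcitriol, and from CNT by -0.51 and -0.76, while HFHS and CNT differed by 0.06 (adjusted p = 0.75). Sc5d differed likewise by -0.47 and -0.66 from HFHS and by -0.53 and -0.72 from CNT.

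Insig1, the sterol-sensing retention protein and itself a sterol-repressed gene, fell by 0.62 (SE 0.10, adjusted p = 0.00783), with 11.32 to 11.96 (median 11.84) against 10.91 to 11.30 (median 11.09). The groups did not overlap, and HFHS replicate 3, at 11.32, came closest to calcitriol replicate 2. It was named after its values were seen, and its promoter stands here for the 11 genes of the list called lower that have a promoter in the RefSeq table. Those promoters were searched for the CCAAT box (CCAAT), the E-box (CACGTG) and the sterol response element core (TCACCCCA) on both strands. In the 250 bases before the start of Insig1 (GRCm38.p6, chr5:28071162-28071411, plus strand) a CCAAT box on the opposite strand, at 216 bases, and an E-box, at 101 bases before the start, are in capitals.
Insig1: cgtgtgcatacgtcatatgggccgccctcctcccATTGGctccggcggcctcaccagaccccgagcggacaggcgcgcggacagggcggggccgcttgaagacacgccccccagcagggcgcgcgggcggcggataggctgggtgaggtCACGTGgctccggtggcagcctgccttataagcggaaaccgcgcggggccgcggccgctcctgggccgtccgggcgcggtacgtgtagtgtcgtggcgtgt
A CCAAT box was in 10 of the 11 promoters (90.9%), against 40.6% of tested genes with a promoter in the table (4002 of 9857) and 37.5% of all promoters. An E-box was in 3 of the 11 (27.3%; 9.95% of tested genes) and the sterol core in 1 (9.09%; 1.64% of tested genes). The metal response element core, counted as well, was in 6 of the 11 (54.5%, against 33.7% of tested genes). Members of the list that were not called were not counted. The match counts are a description of these windows. Fdps and Scd1 have no entry in the table.

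Of 22 listed genes of fatty acid synthesis, all tested, 6 fell, 1 rose and 18 had a difference below 0, with a median of -0.26. Fasn, the fatty acid synthase that builds palmitate (ENSMUSG00000025153, GRCm38 chromosome 11, 120805846 to 120824547, minus strand), stood at 13.86, 13.54 and 13.31 in CNT and at 12.48, 12.96 and 12.77 in HFHS. It stood at 11.81, 12.18 and 12.21 with curcumin and at 11.96, 11.91 and 11.59 with calcitriol liposomes. The 4 groups formed steps, CNT highest, HFHS next and both injected groups lowest. It fell by 1.21 (SE 0.12, adjusted p = 0.00151), and HFHS was itself below CNT by 0.83 (-0.83, adjusted p = 0.0177). The promoter of Fasn (GRCm38.p6, chr11:120824548-120824797, minus strand) is shown for comparison with that of Insig1. It holds CCAAT boxes at 90, 62 and 59 bases before the start, in capitals, the latter 2 overlapping on opposite strands.
Fasn: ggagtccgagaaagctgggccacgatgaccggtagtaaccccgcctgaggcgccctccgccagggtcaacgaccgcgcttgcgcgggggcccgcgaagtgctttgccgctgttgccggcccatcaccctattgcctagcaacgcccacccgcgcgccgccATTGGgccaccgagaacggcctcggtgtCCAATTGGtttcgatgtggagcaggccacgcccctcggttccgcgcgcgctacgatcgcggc
No E-box (CACGTG) was found in this window. Of the 5 genes of this list called lower that have a promoter in the table, 2 had a CCAAT box and 0 an E-box. The CCAAT share among tested genes was 40.6%, and it was 53.7% among separated lower and 53.7% among separated higher genes. With so few promoters, no difference between the 2 lists is read from these counts.

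Scd1, the desaturase that makes oleate, fell by 1.58 (SE 0.33, adjusted p = 0.0327), the largest fall of all genes tested, and its libraries spread widely. It stood at 17.06, 16.92 and 15.78 in CNT, at 15.69, 15.46 and 15.19 in HFHS, at 14.76, 15.07 and 15.05 with curcumin and at 15.19, 13.40 and 13.17 with calcitriol liposomes. Calcitriol replicate 1 was level with HFHS replicate 3 to 2 decimals, and calcitriol replicates 2 and 3 lay well below the rest. The call was lost (adjusted p up to 0.0811) when any one of HFHS replicates 1 and 3, the 3 curcumin libraries, calcitriol replicates 2 and 3 or CNT replicates 1 and 2 was left out. Against HFHS alone the difference was -1.01 (adjusted p = 0.157). Elovl6, which lengthens palmitate, fell by 0.89 (SE 0.12, adjusted p = 0.00342), with 10.26 to 11.54 (median 10.62) against 9.71 to 10.06 (median 9.90). Acaca, the acetyl-CoA carboxylase of this pathway, fell by 0.67 (SE 0.10, adjusted p = 0.00518), with 9.24 to 10.28 (median 9.62) against 8.79 to 9.13 (median 8.99). The ranges of both genes were apart, and in both HFHS lay below CNT, by 0.78 in Elovl6 (-0.78, adjusted p = 0.02) and by 0.58 in Acaca (-0.58, adjusted p = 0.026). Agpat2, an enzyme of triglyceride and phospholipid assembly, was the gene of the list that rose, by 0.43 (SE 0.11, adjusted p = 0.0475). No gene of the list rose against either reference alone, or without any single library other than HFHS replicate 2 or CNT replicate 3.

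**Figure D4:**
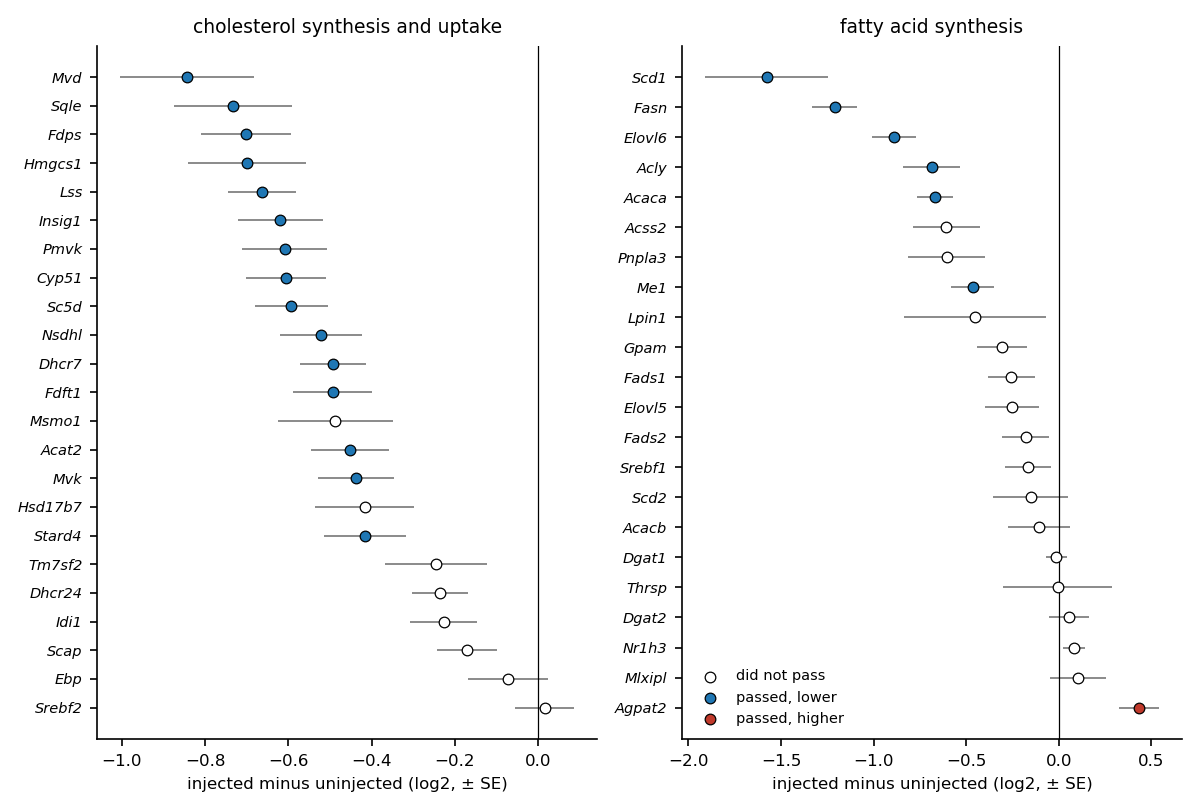
Injected minus uninjected difference (log2, point) with its SE (bar) for genes of cholesterol synthesis and uptake (left) and fatty acid synthesis (right), filled where the adjusted p was under 0.05. The cholesterol genes lie at or below 0 nearly throughout, while the fatty acid genes spread from -1.58 in Scd1 to 0.43 in Agpat2.

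The fatty acid synthesis calls depended on which uninjected group served as reference. Against HFHS alone 1 of the 22 genes fell, against CNT alone 7, and 6 without HFHS replicates 1 and 3. Leaving out each library in turn gave 3 to 8 genes lower, with 3 without any one of the 3 curcumin libraries, calcitriol replicates 2 and 3 or CNT replicates 1 and 2. Elovl6 and Acaca lost their call against HFHS alone (adjusted p = 0.0697 and 0.0865), and Fasn kept it (adjusted p = 0.0247).

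Of the 27 genes of fatty acid oxidation and ketogenesis, 4 rose, 0 fell, 25 had a difference above 0, and the median was 0.21. The 4 were Pdk4, which spares glucose by blocking pyruvate dehydrogenase (0.80, SE 0.18, adjusted p = 0.0402), Cyp4a14, a fatty acid hydroxylase (0.67, SE 0.11, adjusted p = 0.0077), Vnn1, a pantetheinase (0.66, SE 0.08, adjusted p = 0.00201), and Slc25a20, the carnitine carrier (0.32, SE 0.07, adjusted p = 0.0405). None of them separated the libraries. In Vnn1 the CNT libraries ran from 10.36 to 10.62, the HFHS libraries from 11.24 to 11.69 and the injected ones from 11.54 to 11.79. HFHS thus overlapped the injected libraries and CNT did not, and HFHS was above CNT by 0.99 (adjusted p = 0.00113). Cyp4a14 showed the same order, with HFHS 0.82 above CNT, and has near-identical relatives that could share its reads. Against HFHS alone 0 of the 27 genes passed limma's threshold, against CNT alone 6. With single libraries left out the count ran from 2 to 11: 11 without HFHS replicate 2, and 2 without HFHS replicate 3, CNT replicate 2, calcitriol replicate 2 or any curcumin library. Cd36, the fatty acid transporter, rose by 0.45 (SE 0.09, adjusted p = 0.02) in the pooled comparison, but stood at -0.02 and -0.29 against HFHS and at 1.19 and 0.91 against CNT for curcumin and calcitriol. Its call was lost without curcumin replicate 1 or 2, calcitriol replicate 2 or CNT replicate 2. Slc25a20 passed with HFHS replicate 2 left out and lost its call without any other library, and Pdk4 lost it without 8 of the 12. Lipe, the hormone-sensitive lipase, was separated, with 7.89 to 8.48 (median 8.17) against 8.50 to 8.58 (median 8.53). Its rise was 0.37 (SE 0.08, adjusted p = 0.0347), and the call was lost when any injected library or CNT replicate 1 or 2 was left out (adjusted p up to 0.0854).

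**Figure D5:**
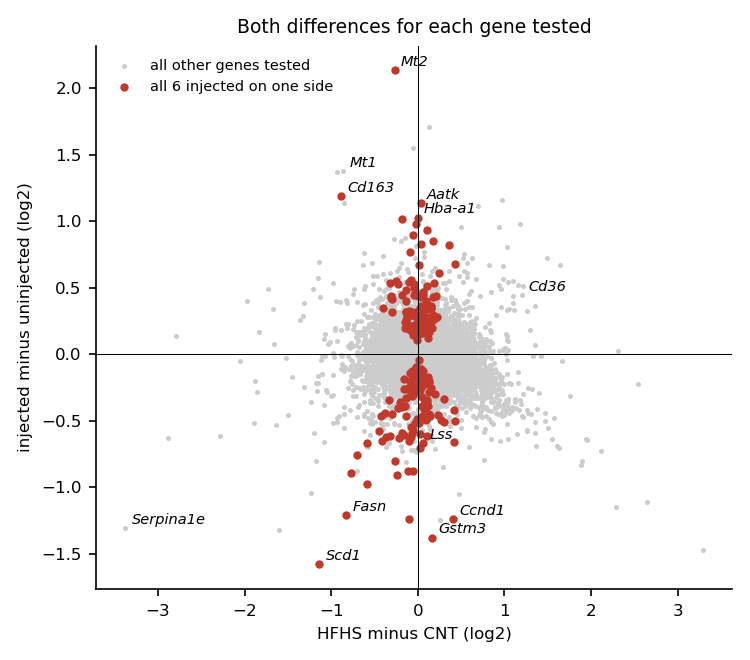
Injected minus uninjected difference (vertical, log2) against HFHS minus CNT difference (horizontal, log2) for each gene tested, with the 229 separated genes in red. HFHS and CNT enter both axes, so they are not independent. Separated genes lie at differing places on the horizontal axis, such as Lss at 0.06, Mt2 at -0.27, Fasn at -0.83 and Scd1 at -1.14. Cd36, which is not separated, lies at 1.2.

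In the list of NRF2 targets, the antioxidant and detoxification genes of that transcription factor, 8 of 25 tested genes fell, 0 rose, and the median was -0.21. The 8 were 6 glutathione transferase genes, Ugdh and Pgd. Gstm3 fell by 1.38 (SE 0.25, adjusted p = 0.02), with 8.45 to 10.27 (median 9.26) against 7.37 to 8.27 (median 8.03). Gsta2 fell by 0.97 (SE 0.17, adjusted p = 0.0143), with 5.28 to 6.44 (median 5.89) against 4.53 to 5.28 (median 4.82), and Gstm4 by 0.62 (SE 0.07, adjusted p = 0.00201), with 9.21 to 9.65 (median 9.39) against 8.55 to 9.08 (median 8.81). All 3 were separated, Gsta2 barely, and Gsta2 lost its call against HFHS alone (adjusted p = 0.0846). Ugdh, which makes the UDP-glucuronic acid used in conjugation, fell by 0.46 (SE 0.07, adjusted p = 0.00421), with 10.85 to 11.16 (median 10.99) against 10.32 to 10.75 (median 10.51). Gstm1 and Gstm2 fell by 0.69 each, with overlapping libraries. The Gstm and Gsta genes are near-identical families that can share reads, so values of single members are uncertain.

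Other members of the list, picked after their values were seen, did not pass: Nqo1 differed by -0.32, Txnrd1 by -0.07, Gclc by 0.04 and Hmox1 by 0.10. Pir, an iron-binding nuclear protein that is not on the list, had the smallest adjusted p of all falling separated genes. It stood between 7.86 and 8.09 (median 7.92) in uninjected, between 7.53 and 7.62 in curcumin and between 7.15 and 7.26 in calcitriol libraries, a fall by 0.55 (SE 0.05, adjusted p = 0.00143). The 3 bands did not overlap, and the fall was 0.33 in curcumin and 0.69 in calcitriol against HFHS (-0.33 and -0.69). The list count was 8 against HFHS alone and 8 against CNT alone, 5 without HFHS replicates 1 and 3, and 6 to 10 with single libraries left out. Gstm3 lost its call (adjusted p up to 0.0533) without curcumin replicate 3, calcitriol replicate 2 or 3, or CNT replicate 1 or 2.

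Of 28 tested genes of the heat shock list, 7 fell, 0 rose and 6 had a difference above 0, with a median of -0.11. The summed level of the list overlapped, with 15.59 to 15.79 in injected and 15.61 to 15.92 in uninjected libraries. Hspa1b, an inducible HSP70 gene (ENSMUSG00000090877, GRCm38 chromosome 17, 34956436 to 34959238, minus strand), stood at 6.46, 6.38 and 6.47 in CNT and at 6.66, 6.85 and 7.06 in HFHS. It stood at 6.04, 6.24 and 6.17 with curcumin and at 5.93, 5.67 and 5.89 with calcitriol liposomes. All injected libraries were below all uninjected ones, and HFHS was above CNT by 0.42 (adjusted p = 0.0334). It fell by 0.66 (SE 0.08, adjusted p = 0.00201), and Hspa1a, its near-identical copy, was below the filter, so reads could have been split between them. Dnajb1, an HSP40 co-chaperone, fell by 0.49 (SE 0.06, adjusted p = 0.00342), with 8.83 to 9.09 (median 8.94) against 8.30 to 8.72 (median 8.40). Chordc1, an HSP90 co-chaperone, fell by 0.40 (SE 0.07, adjusted p = 0.00812), with 9.08 to 9.57 (median 9.39) against 8.83 to 9.06 (median 8.90). Both were separated. Hspa8, the constitutive HSP70, fell by 0.40 (SE 0.06, adjusted p = 0.00672) with a slight overlap. Against HFHS alone Chordc1 and Hspa8 lost their calls (adjusted p = 0.0639 and 0.0538). The promoter of Hspa1b (GRCm38.p6, chr17:34959239-34959488, minus strand) is shown as that of a textbook heat shock gene. Facing units of the heat shock element, GAANNTTC, occur once, at 104 bases before the start, in capitals.
Hspa1b: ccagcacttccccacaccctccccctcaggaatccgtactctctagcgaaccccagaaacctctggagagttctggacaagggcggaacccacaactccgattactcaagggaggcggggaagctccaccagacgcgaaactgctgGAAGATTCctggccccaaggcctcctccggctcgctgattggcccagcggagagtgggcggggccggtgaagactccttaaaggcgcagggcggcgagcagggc
The same letters are in 6.16% of tested genes' promoters and in 1 of the 6 called heat shock genes with a promoter in the table, which is this one. The list count was 2 against HFHS alone, 6 against CNT alone, 6 without HFHS replicates 1 and 3, and 5 to 7 with each library left out.

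Among stress genes of the endoplasmic reticulum and of amino acid shortage, the few called genes went opposite ways, while most differences in both lists were below 0. In the unfolded protein response list 2 of 28 fell, 0 rose and 22 had a difference below 0, with a median of -0.10. In the list of targets of ATF4, the transcription factor of the integrated stress response, 2 of 22 rose and 0 fell. Of these 22, 16 had a difference below 0, and the median was -0.13. Chac1, a glutathione-degrading enzyme and ATF4 target, was 1 of those that rose. It lay between 6.23 and 6.36 (median 6.26) in the uninjected libraries and between 6.71 and 7.74 (median 7.18) in the injected ones. The uninjected values were nearly level and the injected ones spread over more than 1 unit, and the rise was 0.90 (SE 0.14, adjusted p = 0.00672). Other members had values in the opposite direction that did not pass, such as Trib3 (-0.54), Atf3 (-0.45) and Ddit3 (-0.34). Cebpb rose by 0.48 (SE 0.11, adjusted p = 0.0431), a call lost without any single library except curcumin replicate 1 and HFHS replicate 2.

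In the circadian clock list, which also holds Por, a gene of the P450 system, 2 of 27 genes rose and 3 fell, with a median of -0.02. Nr1d1 encodes REV-ERBα, a nuclear receptor of the clock that represses genes of lipid metabolism. It was separated, with 10.07 to 10.80 (median 10.35) in uninjected and 9.22 to 9.79 (median 9.46) in injected libraries, and fell by 0.91 (SE 0.13, adjusted p = 0.00485). Dbp, an output transcription factor, fell by 0.52 (SE 0.08, adjusted p = 0.00742) and the deadenylase gene Noct by 0.58 (adjusted p = 0.0459). Dbp was also lower in HFHS than in CNT (-0.53, adjusted p = 0.0211), and against HFHS alone its difference was -0.26 with the call lost (adjusted p = 0.147). Against HFHS alone 3 genes of the list rose and 1 fell, and against CNT alone 0 rose and 4 fell. Por, the electron donor of the microsomal cytochromes P450, was 1 of the 2 that rose in the pooled comparison. Its rise was 0.49 (SE 0.12, adjusted p = 0.0418), with 13.10 to 13.94 (median 13.64) against 13.76 to 14.28 (median 14.13), an overlap. The core genes Arntl (0.29), Clock (0.18), Per1 (-0.07), Per2 (0.11) and Cry1 (0.53) did not pass. The hour at which livers were taken is not given in the sources used here, and its part in these values was not tested. Por lost its call without any single library except HFHS replicate 2 (adjusted p up to 0.11). Without HFHS replicates 1 and 3 together 0 genes of the list rose and 2 fell. Nr1d1 then had adjusted p = 0.0582. Dbp overlaps on the opposite strand with Sphk2, the sphingosine kinase 2 gene, which rose by 0.56 (SE 0.07, adjusted p = 0.00342), with 8.90 to 9.26 (median 9.04) against 9.45 to 9.80 (median 9.62). As no strand setting is given, reads from the shared stretch cannot be told apart.

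Of 35 tested genes of DNA replication and the cell cycle, 4 fell, 1 rose and 34 had a difference below 0 (median -0.19), and the values depended on the reference group. The median of HFHS minus CNT over the list was 0.43. Ccnd1, cyclin D1, which starts the G1 phase, stood between 10.92 and 12.11 (median 11.22) in uninjected and between 9.29 and 10.40 (median 10.20) in injected libraries. The ranges were 0.53 apart, HFHS replicate 1 was the highest and calcitriol replicate 3 the lowest library, and Ccnd1 fell by 1.24 (SE 0.17, adjusted p = 0.00485). It held in all alternatives run. E2f8, an atypical repressor of the E2F family, was the gene that rose, by 0.68 (SE 0.11, adjusted p = 0.00742), with 6.63 to 7.43 (median 7.25) against 7.55 to 8.01 (median 7.86), and lost its call against HFHS alone (adjusted p = 0.0651). The replication helicase gene Mcm6 fell by 0.44 (SE 0.10, adjusted p = 0.0341), with HFHS libraries from 7.40 to 8.02 against 6.39 to 6.74 in CNT and 6.49 to 6.83 in the injected livers. Its call was lost without any single library except HFHS replicates 1 and 2 and CNT replicate 3. Against HFHS alone 13 of the 35 fell and the median was -0.40, and against CNT alone 1 fell and the median was 0.02. Without HFHS replicate 2 the count was 13, and with any other single library left out it was 2 or 3.

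Acute phase genes, the liver's secreted response to inflammation, had positive differences in 24 of 26 tested members (median 0.37), of which 3 rose and 0 fell. Saa4, the constitutive serum amyloid A, stood at 12.46, 12.48 and 13.09 in CNT, at 12.05, 13.04 and 12.38 in HFHS, at 13.49, 13.40 and 13.23 with curcumin and at 13.52, 13.71 and 14.23 with calcitriol liposomes. Injected libraries were all higher, calcitriol replicate 3 most of all, and the rise was 1.01 (SE 0.18, adjusted p = 0.0143). Serpina3m rose by 0.54 (SE 0.12, adjusted p = 0.0341), with 12.07 to 12.88 (median 12.71) against 13.02 to 13.35 (median 13.07), and has near-identical relatives that could share reads. The inducible Saa1 and Saa2, near-identical to each other, differed by 1.71 (SE 0.86, adjusted p = 0.321) and 1.55 (SE 1.11, adjusted p = 0.495). They were at 16.69 and 17.12 in calcitriol replicate 3 and at 13.57 and 13.12 in CNT replicate 3, against at most 13.13 and 11.64 in the other libraries. Lcn2, a siderophore-binding protein of neutrophils that the liver also makes in the acute phase and that is on both lists, peaked in the same libraries, at 13.92 and 12.16, against at most 11.25 in the others. The summed level of the neutrophil markers, 6 of 12 tested, with the other 6 below the filter and none at 0, was 10.36 to 13.95 in injected and 9.03 to 12.21 in uninjected libraries. Its highest values, 13.95 and 12.21, were in calcitriol replicate 3 and CNT replicate 3. Lcn2, at 13.92 and 12.16, made up most of the sum in these libraries. The neutrophil marker S100a8 stood at 5.88 and 4.78 in them and between 4.36 and 5.51 elsewhere. The part of neutrophils in the acute phase values was not tested. The list count was 0 without HFHS replicates 1 and 3, 3 against HFHS alone and 1 against CNT alone. With single libraries left out it was 1 to 7, 7 without CNT replicate 3, 3 without HFHS replicate 2, 2 without calcitriol replicate 1 and 1 otherwise. Serpina3m lost its call without any single library other than HFHS replicate 2 and CNT replicate 3.

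Globin genes and Alas2 were higher in every injected library than in any uninjected one. Of 12 erythroid markers, 9 were tested, 2 were below the filter and Ahsp was not matched. None of the 9 fell, 4 rose and all 9 had a difference above 0, with a median of 0.72. Of the 9, 5 separated the libraries, while others, such as Bpgm (0.44), Slc4a1 (0.28) and Klf1 (0.09), overlapped and did not pass. Hba-a1, an alpha globin gene, stood at 9.14, 9.67 and 10.27 in CNT, at 9.14, 9.80 and 10.13 in HFHS, at 10.62, 10.80 and 10.62 with curcumin and at 10.98, 10.63 and 10.66 with calcitriol liposomes. The injected libraries lay close together and the uninjected ones spread over more than 1 unit, without overlap. The rise was 1.03 (SE 0.20, adjusted p = 0.02), that of the near-identical Hba-a2 was 0.98 (SE 0.19, adjusted p = 0.02), and the beta globin gene Hbb-bs rose by 0.94 (SE 0.19, adjusted p = 0.025). Hbb-bt, the other adult beta globin gene, named after its values were seen, was separated with 0.85 (SE 0.21, adjusted p = 0.0562). Alas2, the haem synthesis enzyme of red cell precursors, rose by 0.61 (SE 0.09, adjusted p = 0.00467), with 8.67 to 9.30 (median 9.06) against 9.49 to 9.85 (median 9.61). The summed level of the erythroid list ran from 13.45 to 13.80 (log2) in injected and from 12.11 to 13.18 in uninjected libraries. In bulk tissue, more cells of a type and more RNA per cell cannot be told apart, and whether perfusion or blood content differed was not tested. Within the uninjected groups, CNT replicate 1 (12.11) and HFHS replicate 1 (12.25) were the lowest.

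The erythroid count depended on single libraries. It was 1 without HFHS replicates 1 and 3, 3 against HFHS alone and 5 against CNT alone. With each library left out it was 1 (without curcumin replicate 2 or CNT replicate 2), 2 (without calcitriol replicate 3), 3 to 4 for most others, 7 without HFHS replicate 2 and 8 without CNT replicate 3. Alas2 passed in all 23 alternatives, while Hba-a1 lost its call without curcumin replicate 2 or CNT replicate 2, Hba-a2 also without calcitriol replicate 3, and Hbb-bs without CNT replicate 2 or any injected library (adjusted p up to 0.0532, 0.0544 and 0.0636). Platelet markers had positive differences in all 4 tested of 9 listed, and 0 passed. Their summed level was 7.39 to 7.78 in injected and 7.07 to 7.46 in uninjected libraries, which overlap.

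Of 15 Kupffer markers, all tested, 2 rose, 0 fell and 14 had a difference above 0 (median 0.27). Clec4f, a lectin specific to mouse Kupffer cells, stood between 10.63 and 11.19 (median 10.87) in uninjected and between 11.04 and 11.50 (median 11.30) in injected libraries, a rise by 0.41 (SE 0.09, adjusted p = 0.0341). HFHS replicate 2, at 11.19, overlapped the injected libraries. Vsig4, the complement receptor CRIg, rose by 0.35 (SE 0.09, adjusted p = 0.0465), also with overlap. Cd163, the haemoglobin scavenger receptor, named after its values were seen, was separated with 1.19 (SE 0.29, adjusted p = 0.0576). It was 6.70, 8.50 and 6.49 in HFHS, 8.02, 8.25 and 8.10 in CNT, 8.52, 8.60 and 8.62 with curcumin and 8.82, 9.39 and 9.23 with calcitriol liposomes. HFHS replicates 1 and 3 were far below all others, and HFHS replicate 2 came within 0.021 of the lowest injected library. Slc40a1, the iron exporter ferroportin, was separated with 0.27 (SE 0.07, adjusted p = 0.0634). The summed level of the Kupffer list was 13.93 to 14.43 in injected and 13.55 to 14.23 in uninjected libraries. Its count was 1 without HFHS replicates 1 and 3, 1 against HFHS alone and 3 against CNT alone. It was 0 when any one of HFHS replicates 1 and 3, CNT replicate 2 or the injected libraries was left out, 1 without CNT replicate 1, and 5 without HFHS replicate 2.

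Of 15 tested markers of monocyte-derived and lipid-associated macrophages 1 fell, Fabp5 (-0.88, SE 0.20, adjusted p = 0.0374), 0 rose and the median was -0.38. Their summed level was 11.76 to 12.07 in injected and 11.65 to 13.28 in uninjected libraries. Only HFHS replicates 1 and 3 exceeded the injected range, with sums of 13.28 and 12.49. The sum was 11.91 for HFHS replicate 2 and at most 12.06 among CNT libraries. The list median thus depended on the reference group, and its HFHS minus CNT median was 0.97. No marker of the macrophage, hepatocyte, erythroid or platelet lists was at 0. The part of these cell types in the other results was not tested. The macrophage gene Cd68 stood between 7.77 and 8.88 (median 8.22) in uninjected and between 8.07 and 8.50 (median 8.37) in injected libraries, a difference of 0.05 (SE 0.09, adjusted p = 0.824). Col1a1, a fibrillar collagen chain, differed by -0.73 (SE 0.44, adjusted p = 0.405). It was 10.13 and 9.78 in HFHS replicates 1 and 3 and 6.67 to 7.87 in the other 10 libraries. None of 32 tested fibrosis and matrix genes passed limma's threshold, whereas 24 of them fell without HFHS replicate 2, and the median went from -0.38 to 0.08 without HFHS replicates 1 and 3. Lists of T and NK cells, B and plasma cells, dendritic cells, neutrophils and cholangiocytes had 0 calls each.

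Several of the most even differences were in genes outside these lists. Adra1a, the gene of the alpha-1A adrenergic receptor, stood between 6.76 and 7.0 (median 6.91) in uninjected and between 7.39 and 7.48 (median 7.44) in injected libraries. The injected values spanned less than 0.1, and the rise was 0.54 (SE 0.06, adjusted p = 0.00151). Pex26, a peroxisome assembly gene, rose by 0.53 (SE 0.06, adjusted p = 0.00151), with 8.88 to 9.29 (median 9.14) against 9.47 to 9.78 (median 9.61). Hfe2, which encodes hemojuvelin, a bone morphogenetic protein co-receptor of iron sensing, rose by 0.53 (SE 0.06, adjusted p = 0.00201), with 9.12 to 9.49 (median 9.24) against 9.67 to 9.95 (median 9.87). These 3 ranges were apart, and the hepcidin gene Hamp, which hemojuvelin is known to induce, differed by -0.59 and did not pass. Aatk, a neuronal-type kinase gene, rose by 1.13 (SE 0.16, adjusted p = 0.00485). It was 6.14 to 7.05 (median 6.36) in uninjected libraries, 7.59 to 8.02 with curcumin and 7.12 to 7.51 with calcitriol liposomes, with HFHS replicate 2 the highest uninjected one. Cda, cytidine deaminase, rose by 0.51 (SE 0.07, adjusted p = 0.00342) with the curcumin mean again above that of calcitriol. Rab30, a Golgi GTPase, Slc45a3, a sugar transporter family member, and Cerkl, a ceramide kinase-like gene, rose by 0.77, 0.82 and 0.67, and Bace1, the beta-secretase, rose by 0.30. The call of Slc45a3 was lost without curcumin replicate 3 and against HFHS alone. Exons of Nr1d1, Ccnd1, Bace1, Alas2, Cerkl, E2f8, Lipe, Lss, Stat3, Fam234b and Lrp3 overlap a gene on the opposite strand. Reads from the shared stretches cannot be told apart from those of that gene.

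Among the falls outside the lists, Chrna4, a nicotinic acetylcholine receptor subunit, was low throughout, between 5.26 and 6.51 (median 5.97) in uninjected and between 4.48 and 4.92 (median 4.69) in injected libraries. It fell by 1.24 (SE 0.18, adjusted p = 0.00594). Iffo2, an intermediate filament family gene, fell by 0.65 (SE 0.07, adjusted p = 0.00151), with 8.12 to 8.82 (median 8.41) against 7.53 to 7.97 (median 7.83). Tbcel, a tubulin cofactor E-like gene, fell by 0.39 (SE 0.04, adjusted p = 0.00201), with 10.14 to 10.47 (median 10.32) against 9.88 to 9.99 (median 9.93). None of the 3 overlapped between groups. Cyp2c55, a cytochrome P450 with near-identical relatives, was separated and fell by 0.87 (SE 0.20, adjusted p = 0.0392). Its call was lost without any single library except HFHS replicates 1 and 2 and CNT replicate 3. Shank2, a scaffold gene, fell by 0.46 (SE 0.08, adjusted p = 0.0138) and Mir22hg, the host gene of miR-22, rose by 0.41 (SE 0.07, adjusted p = 0.0124), in both cases with HFHS and CNT apart. Shank2 was 0.64 higher and Mir22hg 0.83 lower in HFHS than in CNT (0.64 and -0.83, adjusted p = 0.013 and 0.00248), and Mir22hg differed from CNT by -0.18 with curcumin and 0.16 with calcitriol.

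Calcitriol acts through the vitamin D receptor, whose gene Vdr was below the filter. Cyp24a1, the standard target of that receptor, was listed at 0 in all libraries. Of 8 tested genes of the vitamin D list 1 fell, Cyp2r1, a vitamin D 25-hydroxylase (-0.29, SE 0.06, adjusted p = 0.0341). It differed from HFHS by -0.01 and -0.06 and from CNT by -0.51 and -0.56 for curcumin and calcitriol, and HFHS was below CNT (-0.50, adjusted p = 0.0121).

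Curcumin and calcitriol libraries were compared to see whether the separated genes hold a difference between them. With limma, 0 of 12637 genes (0%) passed between curcumin and calcitriol, 1873 had an unadjusted p under 0.05, and the lowest adjusted p was 0.142. Of the 229 separated genes, curcumin and calcitriol libraries did not overlap in 53 (23.1%), against 28.7% of all genes tested. The calcitriol mean lay farther from the uninjected libraries than the curcumin mean in 124 of the 229. In Mt2 calcitriol was 0.76 higher and in Scd1 1.04 lower than curcumin, and in Aatk 0.59 lower, none of them past the threshold. This does not show that the injected groups act alike.

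Which uninjected group is used as reference changed the gene calls more than their number. With HFHS as the sole reference 219 genes rose and 293 fell, and 196 of the 452 pooled calls were among them. With CNT as the sole reference 297 rose and 362 fell, and 291 of the 452 were among them. All 229 separated genes stay separated in either by construction. HFHS and CNT themselves differed in 828 genes higher (6.55%) and 677 lower (5.36%). Among the separated higher genes 1 was called higher and 1 lower in HFHS, and among the separated lower genes 1 higher and 9 lower, Fasn, Elovl6, Acaca and Iffo2 among the 9. These comparisons share the HFHS and CNT libraries, and the rule needs HFHS and CNT on the same side of the injected libraries. For these reasons nothing is read from the small number. Serpina1e, an alpha-1-antitrypsin gene with near-identical relatives, named after its values were seen, shows what the rule removes. It was called lower (-1.31, SE 0.28, adjusted p = 0.0341), but CNT stood at 11.28 to 11.43, HFHS at 7.78 to 8.11 and the injected livers at 7.52 to 9.16. The injected libraries thus overlapped HFHS.

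Single libraries moved the totals. Without HFHS replicate 2, 675 genes rose and 913 fell. Without CNT replicate 3, 302 rose and 365 fell. Leaving out any one of the other 10 libraries gave 83 to 122 genes higher and 94 to 143 lower, and leaving out HFHS replicates 1 and 3 together 58 and 108.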

How the data were processed

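Whole-liver RNA of 12 mouse libraries, 3 per titled group, was analysed. The log2 expression values deposited by the authors reach from -3.63 to 20.7. Their transformation is not given in the sources used here, and the submitters' processing notes name STAR 2.4.0d, DESeq2 1.8.1 and the build GRCm38 without roles. Neither counts nor depth are known, so precision rests on the spread between libraries. If the values were shrunken, differences of weakly expressed genes are understated. Each file lists 45792 identifiers, of which 23411 are at 0 in all libraries. The 12637 genes at 3.32 (log2 of 10) or more in at least 3 libraries were tested.

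The 4 group means were fitted in limma 3.58.1 (R 4.3.3, trend and robust), and the mean of both injected groups was set against the mean of HFHS and CNT, with Benjamini-Hochberg adjustment over all genes tested. The test was checked on simulated independent normal values with a common spread for each gene, in which 200 genes were changed in the injected libraries. That check does not cover unequal spread between groups, outlying libraries or correlated libraries. Symbols and positions are from GENCODE M21, promoters from RefSeq (9857 of 12637 tested genes matched).

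The comparison, gene lists and members were chosen with earlier results of these data known. Named genes are those with the largest changes among called and separated genes, those with the smallest adjusted p, up to 4 called members of each list with at least 2, a few fixed genes (Mt1, Mt2, Shank2, Mir22hg, Vdr, Cyp24a1, Cd68, Clec4f, Col1a1) and those at the edge of the separation rule, shortened from the end of each ranking. Members given as not passing, and Insig1, Srebf2 and Hamp, were chosen after their values were seen. Alternatives were other scalings, filters and fits, either reference group alone, and each library left out. A few genes that count in the lists are not reported here by name. List counts under these alternatives were added after seeing the data.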

Additional observations from a re-analysis of the deposited data

Results flagged for a closer look

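In groups of 6, a library was marked when its gap to the nearest other was large against the whole range, by Dixon's 95% critical value. Chance marks about 1 in 20 sets. Of 158 sets over 79 genes, 7 were marked, against 7.9 by chance, 2 through HFHS replicate 1, 2 through calcitriol replicate 3 and 1 each through 3 other libraries. Ccnd1 was marked on both sides, with HFHS replicate 1 highest among uninjected libraries at 12.11 and calcitriol replicate 3 lowest among injected ones at 9.29. Hbb-bs was highest among injected libraries in calcitriol replicate 1 at 12.92. Slc25a20 was highest among uninjected libraries in HFHS replicate 2 at 11.26, and Cirbp, which encodes a cold-inducible RNA-binding protein, in HFHS replicate 3 at 7.12. Fam234b was highest among injected libraries in calcitriol replicate 3 at 10.12, and Senp6 among uninjected ones in HFHS replicate 1 at 9.23.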

How the results depend on the processing

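Of 74 named genes that passed, 24 passed under all 23 alternatives and 47 with every library left out in turn. Without a filter 144 genes were higher and 143 lower. Without HFHS replicates 1 and 3 together the counts were 58 and 108 (34.9% higher, against 50.2% as reported), and 285 and 368 genes were separated. With HFHS as sole reference 632 and 613 were separated, with CNT 806 and 892, and 362 were called lower. A fit with 2 group means, injected and uninjected, called 75 and 79. It counts differences between HFHS and CNT and between curcumin and calcitriol as spread. Array weights called 1061 and 1267. Leaving out each library in turn gave 83 to 675 genes called higher, 94 to 913 lower, 128 to 223 separated higher and 131 to 198 separated lower. Fewer libraries make separation easier by construction; for the other moves the cause was not tested. Signs reversed in Col1a1 (0.147 without HFHS replicates 1 and 3, 0.328 against CNT), Cd36 (-0.154 against HFHS), Cd68 (-0.264 against HFHS, -0.004 without HFHS replicate 2 and without curcumin replicate 1; 0.123 without HFHS replicate 1, with the same sign), Mir22hg (-0.008 against CNT) and Mcm6 (0.085 against CNT).

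Libraries share only a replicate number: 9 of 18 same-number pairs correlated over 0.1 (median 0.105, other pairs -0.047), and 9 of 12 libraries correlated best with their own number. With the replicate number as a block, 198 genes were higher and 204 lower, and 347 of these calls were among the 452.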

Other observations

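The following separated genes were chosen after their values were seen. Mat2a, which makes S-adenosylmethionine, rose by 0.44 (SE 0.07, adjusted p = 0.00783), and Amd1, which uses it for polyamine synthesis, fell by 0.39 (SE 0.09, adjusted p = 0.0331). The tubulin genes Tubb4b and Tuba1b fell by 0.52 and 0.36, and the acyl-CoA synthetase genes Acsl3 and Acsl4 by 0.33 and 0.41. The genes Stat5a and Il4ra rose by 0.36 and 0.31, and the death receptor gene Fas by 0.44.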
